A study of Mus musculus with 15 samples.

Results

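Messenger RNA of 9 genes of the pancreatic duct was followed in whole mouse pancreas 3 h after saline or cerulein. They are the transcription factors Sox9, Onecut1, Onecut2 and Hes1 and the duct markers Cftr, Car2, Spp1, Muc1 and Tspan8. These 9 are 9 of the 20660 genes with a named probe on the array. They were taken by name, through the RefSeq transcript accession that the scanner output gives for each probe. The choice was made with earlier results of these data known. Each gene has 1 probe, the Sox9 probe being printed 10 times on every array. All 9 are among the 17338 genes tested.

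Ducts are the epithelial tubes that carry digestive enzymes from the acini to the gut and add a bicarbonate-rich fluid on the way. Sox9 marks duct and centroacinar cells and is part of a network with the ONECUT homeodomain factors, of which Onecut1 (also known as HNF6) is needed for normal duct formation. Hes1 is the main transcriptional repressor induced by Notch signalling, which holds centroacinar and progenitor-like cells in an undifferentiated state. Cftr is the chloride and bicarbonate channel of the duct's apical membrane, and Car2 is the cytosolic carbonic anhydrase that supplies bicarbonate. Spp1 (osteopontin) is a secreted phosphoprotein, Muc1 a transmembrane mucin of the apical surface, and Tspan8 a tetraspanin of epithelial membranes. Several of the 9 are also made outside ducts: Spp1 in activated macrophages, Muc1 in acinar cells, Tspan8, Onecut2 and Cftr in intestinal epithelium, and Hes1 in most cell types.

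The mice were male C57BL/6J, fasted for 18 h, injected once into the peritoneum with saline, alone or carrying cerulein at 50 µg/kg, and killed 3 h later. Cerulein is a cholecystokinin analogue that overstimulates acinar cells and elicits acute pancreatitis. Saline (time label 0 h) went to 4 wild type and 3 transgenic mice and cerulein (time label 3 h) to 4 of each genotype, with 1 array per mouse. The series title ties the work to betacellulin, which belongs to the epidermal growth factor family, and to its receptor ERBB4. The promoter that drives the transgene, the ages of the mice and whether the transgenic mice come from 1 founder line are not given in the sources used here. The Btc probe did not separate the genotypes. Its mean level was -4.41 ± 0.80 (SD, n = 4) in wild type and -3.86 ± 0.38 (SD, n = 3) in transgenic pancreas after saline, and -2.87 ± 0.76 (SD, n = 4) and -2.38 ± 0.64 (SD, n = 4) after cerulein. Neither genotype difference passed the test (adjusted p = 1 and 0.837), and whether this probe lies in the transgene's transcript is not given, so the genotype groups below rest on the labels alone.

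A level below is the log2 of the probe's signal minus the log2 of the 75th percentile of all probes on that array, so that 0 is the 75th percentile. Levels of different probes were not set against each other. Differences are differences of group means on this log2 scale with the standard error from limma, and a gene was called at a Benjamini-Hochberg adjusted p below 0.05 over all 17338 genes. The 75th percentile itself ranged from 152 to 529 intensity units, and 54.9% to 76% of probes were well above background. In wild type that share was 54.9% to 65.3% after saline and 65.1% to 76% after cerulein, and its part in the results was not tested. Sox9, Onecut2, Hes1, Car2, Spp1 and Muc1 were well above background on all 15 arrays, Tspan8 on 11, and Onecut1 and Cftr on 5 each.

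The arrays lie on 3 slides, each with its own scan. Slide 1 held 2 wild type arrays, saline 5 and cerulein 9, and 3 transgenic arrays, saline 2 and cerulein 13 and 14. Slide 2 held cerulein arrays only, namely wild type 11 and 12 and transgenic 16. Slide 3 held 4 wild type arrays, saline 6, 7 and 8 and cerulein 10, and 3 transgenic arrays, saline 3 and 4 and cerulein 15. The cerulein differences are therefore also given with slide in the model and as differences within slides 1 and 3, and the larger genotype differences after cerulein also within slide 2.

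Transgenic saline 2 and transgenic cerulein 14 stood apart from the other 13 arrays by transcripts of intestinal epithelium. The mean level of 10 intestinal markers was 1.66 and 1.36 on these arrays and -2.6 to -0.9 on the others. Sis, the brush border sucrase-isomaltase, was at least 0.74 on both and at most -0.11 elsewhere. Fabp2, the intestinal fatty acid binding protein, was at least 3.26 on both and at most 0.46 elsewhere. Of the 10, 8 were higher on both than on all 13 others, and Vil1 (1.36 against up to 3.6 elsewhere) and Cdx1 (-0.92 against up to -0.86) were not. Next in mean level was transgenic cerulein 13, with Lgals4 at 2.63, Tff3 at 0.73 and Cdx1 at -0.86. Of the 9 duct genes, Tspan8, Onecut2 and Cftr had their highest levels on exactly these arrays. Results that rest on them are given with and without both arrays, an alternative chosen after these levels were seen.

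**Figure D1:**
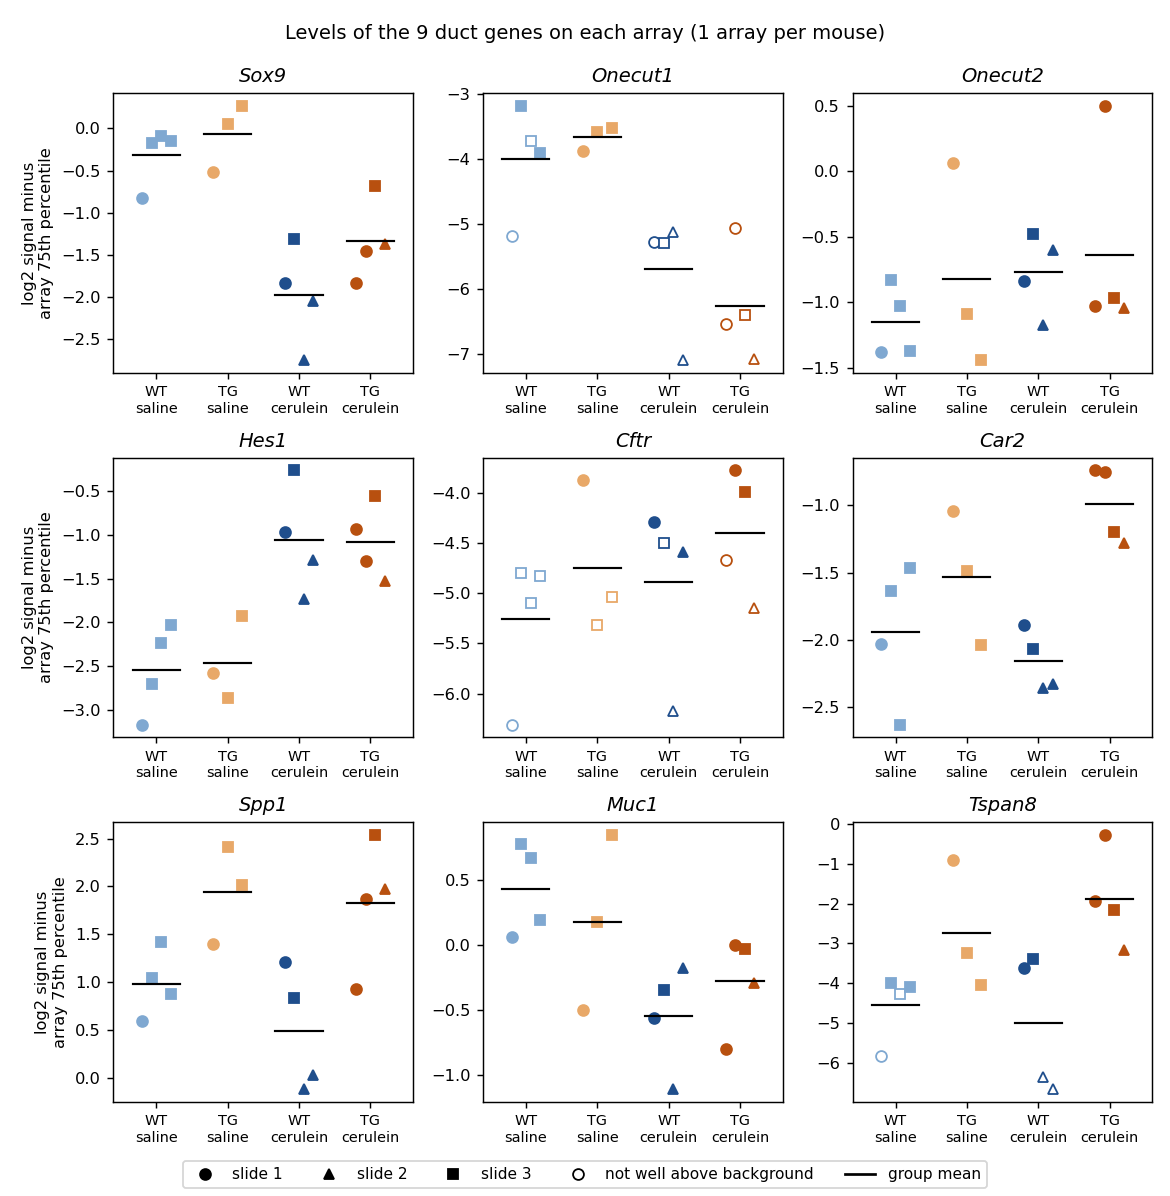
Each panel plots 1 of the 9 genes, with the level on each array (log2 signal minus the array's 75th percentile) on the vertical axis and the 4 groups on the horizontal axis; marker shape gives the slide, open markers are not well above background and black lines are group means. Sox9 lies lower and Hes1 higher on every cerulein array than on any saline array of the same genotype, while Onecut2 and Tspan8 each have 2 high arrays in the transgenic groups.

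At 3 h after cerulein, Sox9 and Onecut1 were lower and Hes1 was higher than after saline in both genotypes, and Muc1 was lower in wild type. In wild type pancreas 1 of the 9 genes rose (Hes1) and 3 fell (Sox9, Onecut1 and Muc1), so 4 were called, where 14% of all genes tested were called (5.64% rose and 8.35% fell). In transgenic pancreas 1 rose (Hes1) and 2 fell (Sox9 and Onecut1), so 3 were called, where 8.2% of all genes tested were called (4.78% rose and 3.41% fell). The median difference over the 9 genes was -0.47 in wild type and 0.19 in transgenic pancreas, beside -0.06 over all genes in each. With slide in the model the wild type median over the 9 was -0.06, the same as over all genes. Within slides 1 and 3 it was 0.54 and -0.15. The transgenic median was 0.21 with slide (-0.07 over all genes), and -0.19 and 0.33 within slides 1 and 3. Onecut2, Cftr, Car2, Spp1 and Tspan8 passed the test in neither genotype in the fit of 4 group means. In whole tissue, fewer duct cells and less RNA per duct cell cannot be told apart. When slide was a term of the model 2 were called in wild type (Sox9 and Hes1; 21.5% of all genes) and 3 in transgenic pancreas (Sox9, Onecut1 and Hes1; 23.6% of all genes). Without slide 2 only Hes1 was called in wild type (8.97% of all genes), and the same 3 in transgenic pancreas (9.12%). When both arrays rich in intestinal transcripts were left out 4 were called in wild type (11.1% of all genes) and 1, Onecut1, in transgenic pancreas (3.2%). Leaving them out with slide in the model as well gave 2 in wild type (Sox9 and Hes1; 20% of all genes) and 3 in transgenic pancreas (Onecut1, Hes1 and Tspan8; 16.5%). Over all 42181 probes, in place of genes, 2 were called in wild type (8.96% of probes) and 3 in transgenic pancreas (5.9%). With arrays weighted by their spread 4 were called in wild type (40.9% of all genes) and 7 in transgenic pancreas (44.5%), where Onecut2 (1.08, adjusted p = 0.0173), Cftr (1.01, adjusted p = 0.0318), Car2 (0.85, adjusted p = 0.0232) and Tspan8 (2.39, adjusted p = 0.01) joined Sox9, Onecut1 and Hes1.

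Sox9, the HMG-box factor of duct and centroacinar cells, stood at -0.82, -0.17, -0.09 and -0.15 in wild type saline mice 5 to 8. Its levels were -1.83, -1.31, -2.75 and -2.05 in wild type cerulein mice 9 to 12. Every wild type cerulein array was below every saline array, the lowest values coming from slide 2. The difference was -1.68 ± 0.32 (95% interval -2.37 to -0.99; adjusted p = 0.00334), or 3.2-fold lower. In transgenic pancreas Sox9 stood at -0.52, 0.05 and 0.27 after saline (mice 2 to 4) and at -1.84, -1.46, -0.68 and -1.37 after cerulein (mice 13 to 16), again with no overlap. That difference was -1.27 ± 0.35 (95% interval -2.02 to -0.53; adjusted p = 0.0362), or 2.42-fold lower. Groups that do not overlap with the cerulein group lower occurred for 10.1% of all genes in wild type and 11.6% in transgenic pancreas.

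The Sox9 fall was smaller when arrays of the same slide were compared. Fitted with slide it was -1.22 ± 0.21 in wild type (adjusted p = 0.00151) and -0.92 ± 0.21 in transgenic pancreas (adjusted p = 0.00728). Within slides 1 and 3 the differences were -1.01 and -1.17 in wild type and -1.13 and -0.84 in transgenic pancreas. On each array the spread over the Sox9 spots was small beside these differences, with SDs of 0.051 to 0.173. The wild type call ended without slide 2 (-1.26, adjusted p = 0.0509). The transgenic call ended without both arrays rich in intestinal transcripts (-1.46, adjusted p = 0.0883; -0.89 with slide in the model as well, adjusted p = 0.0625). It also ended without transgenic saline 3 (-1.21, adjusted p = 0.141) or 4 (-1.11, adjusted p = 0.173), without wild type saline 6 (-1.27, adjusted p = 0.0519), and without transgenic cerulein 13 (-1.11, adjusted p = 0.0875), 14 (-1.23, adjusted p = 0.0905) or 16 (-1.26, adjusted p = 0.0706).

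Onecut1, the ONECUT factor of duct development, had signal above background only after saline. It was well above background on 2 of 4 wild type and 3 of 3 transgenic saline arrays and on none of the 8 cerulein arrays. In wild type mice 5 to 8 after saline the levels were -5.19, -3.18, -3.72 and -3.91, and in mice 9 to 12 after cerulein -5.28, -5.3, -5.13 and -7.1. The groups overlapped through wild type saline 5, the slide 1 array. The fitted difference was -1.70 ± 0.51 (95% interval -2.8 to -0.61; adjusted p = 0.0404). With each dim cerulein array raised to the lowest signal among probes well above background, the cerulein mean was -4.78. The saline mean was -4, so the level was 1.72-fold lower after cerulein by this comparison. The comparison takes, on each dim cerulein array, the higher of that lowest signal and the probe's own. It leaves out the spread between mice. In wild type it sets no lower limit, because the saline mean includes arrays 5 and 7, where Onecut1 was itself not well above background. In transgenic mice 2 to 4 after saline the levels were -3.88, -3.59 and -3.52, and in mice 13 to 16 after cerulein -6.54, -5.06, -6.41 and -7.09, with no overlap. The difference there was -2.61 ± 0.55 (95% interval -3.8 to -1.43; adjusted p = 0.00864). All transgenic saline arrays were well above background, and the same comparison of means gave at least 2.27-fold on this scaling. It again leaves out the spread between mice.

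Both Onecut1 falls were smaller under normexp background correction (-0.78, adjusted p = 0.0243 in wild type, and -0.77, adjusted p = 0.0464 in transgenic pancreas) and in the authors' series table (-1.02, adjusted p = 0.0341, and -1.20, adjusted p = 0.0302). The transgenic Onecut1 call held with slide in the model (-2.26 ± 0.56, adjusted p = 0.0123) and without both arrays rich in intestinal transcripts (-3.12, adjusted p = 0.0154), and the differences within slides 1 and 3 were -1.92 and -2.85. The wild type call did not hold with slide in the model (-1.13 ± 0.56, adjusted p = 0.19). Within slide 1 the wild type difference was -0.10 and within slide 3 it was -1.69. The wild type call also ended when p-values were adjusted over all 42181 probes (adjusted p = 0.0557) and without wild type saline 6 (-1.43, adjusted p = 0.128), 7 (-1.61, adjusted p = 0.104) or 8 (-1.68, adjusted p = 0.0882). It ended likewise without wild type cerulein 9 (-1.85, adjusted p = 0.0528) or 12 (-1.24, adjusted p = 0.121) and without transgenic saline 3 (-1.70, adjusted p = 0.0544) or 4 (-1.70, adjusted p = 0.0534).

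The sequence before the start site is shown for Onecut1 and Muc1, both of which fell in wild type pancreas, so that motifs of the other factors described here can be read in place. The 250 bases before the RefSeq start (GRCm38.p6, 5′ to 3′) are given, at chr9:74861671-74861920, + strand, for Onecut1 and at chr3:89228806-89229055, + strand, for Muc1. Capitals mark matches to any of 6 motifs searched on both strands.
Onecut1: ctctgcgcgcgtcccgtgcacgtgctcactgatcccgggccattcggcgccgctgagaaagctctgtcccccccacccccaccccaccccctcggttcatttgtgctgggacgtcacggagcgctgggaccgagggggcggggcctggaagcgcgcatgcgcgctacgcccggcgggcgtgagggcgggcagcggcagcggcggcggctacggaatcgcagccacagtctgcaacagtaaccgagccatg
Muc1: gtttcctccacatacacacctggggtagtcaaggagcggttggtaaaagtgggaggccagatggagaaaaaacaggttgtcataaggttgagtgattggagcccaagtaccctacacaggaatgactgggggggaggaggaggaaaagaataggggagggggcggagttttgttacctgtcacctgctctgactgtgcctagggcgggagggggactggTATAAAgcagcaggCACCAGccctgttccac
The motifs were TGGGAA (RBPJ, the DNA-binding partner of Notch), CACNAG (the N box of HES repressors), ACAATG (SOX), ATNGAT (ONECUT), TGTTTAC (FOXA) and TATAAA (the TATA box). The Muc1 window held TATAAA at 31 to 26 bases and CACNAG at 17 to 12 bases before the start, both on the gene's strand and not overlapping. The Onecut1 window held none of the 6. Of 32851 RefSeq promoter windows of the same length, 12.4% held TATAAA, 36.7% CACNAG, 21.6% TGGGAA, 10.7% ACAATG, 18.9% ATNGAT and 3.17% TGTTTAC. A match is a run of letters and no evidence of binding.

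Hes1, the Notch-induced repressor, moved the other way. Its levels in wild type mice 5 to 8 after saline were -3.17, -2.7, -2.24 and -2.03, and in mice 9 to 12 after cerulein -0.97, -0.26, -1.73 and -1.29. Every cerulein array was above every saline array. The rise was 1.48 ± 0.35 (95% interval 0.73 to 2.22; adjusted p = 0.0116), or 2.78-fold. In transgenic mice the levels were -2.58, -2.86 and -1.93 after saline and -0.93, -1.3, -0.56 and -1.53 after cerulein, without overlap, and the rise was 1.38 ± 0.38 (95% interval 0.58 to 2.18; adjusted p = 0.0345), or 2.6-fold. Groups that do not overlap with the cerulein group higher occurred for 7.35% of all genes in wild type and 9.95% in transgenic pancreas.

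The Hes1 rise was larger within slides. Fitted with slide it was 2.02 ± 0.26 in wild type (adjusted p = 0.000219) and 1.75 ± 0.26 in transgenic pancreas (adjusted p = 0.000515). Within slides 1 and 3 it was 2.2 and 2.07 in wild type and 1.47 and 1.83 in transgenic pancreas. The rise was smaller and not called when background was corrected by normexp (0.57, adjusted p = 0.0674 in wild type, and 0.61, adjusted p = 0.0884 in transgenic pancreas). That setting lowered the median difference of all genes to -0.23 in wild type and -0.2 in transgenic pancreas. The transgenic call also ended with quantile normalization (1.32, adjusted p = 0.0618) and without both arrays rich in intestinal transcripts (1.39, adjusted p = 0.147), although it held without them when slide was in the model (adjusted p = 0.00363). Single arrays that ended it were transgenic saline 2 (1.32, adjusted p = 0.0966) and 3 (1.18, adjusted p = 0.175) and transgenic cerulein 13 (1.33, adjusted p = 0.0696), 14 (1.45, adjusted p = 0.0626) and 15 (1.21, adjusted p = 0.0765).

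Onecut2, the paralogue of Onecut1, was not called in the fit of 4 group means. Its levels after saline were -1.38, -0.83, -1.03 and -1.37 in wild type and 0.06, -1.09 and -1.44 in transgenic mice. After cerulein they were -0.84, -0.48, -1.17 and -0.6 in wild type and -1.03, 0.5, -0.97 and -1.04 in transgenic mice. The values 0.06 and 0.5 belong to both arrays rich in intestinal transcripts, and the other 13 arrays lay between -1.44 and -0.48. The cerulein difference was 0.38 (95% interval -0.42 to 1.17; adjusted p = 0.494) in wild type and 0.19 (95% interval -0.67 to 1.05; adjusted p = 0.824) in transgenic pancreas. With slide in the model the differences were 0.45 ± 0.42 and 0.16 ± 0.42, and within slides 1 and 3 they were 0.54 and 0.60 in wild type and -0.32 and 0.29 in transgenic pancreas. Without both arrays the transgenic difference was 0.25 (adjusted p = 0.672).

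Muc1, the apical transmembrane mucin, stood at 0.06, 0.78, 0.67 and 0.19 in wild type mice after saline and at -0.56, -0.35, -1.11 and -0.18 after cerulein. The groups did not overlap, as for 10.1% of all genes with the cerulein group lower in wild type. The difference was -0.98 ± 0.31 (95% interval -1.64 to -0.32, adjusted p = 0.0482), or 1.97-fold lower. In transgenic mice the levels were -0.5, 0.18 and 0.85 after saline and -0.8, 0, -0.03 and -0.29 after cerulein. These overlapped, with a difference of -0.46 ± 0.33 (95% interval -1.17 to 0.26, adjusted p = 0.471). Fitted with slide the transgenic difference was -0.26 ± 0.30 (adjusted p = 0.581), and within slides 1 and 3 it was 0.10 and -0.55. The genotypes' responses were not shown to differ (difference of responses 0.52 ± 0.45, adjusted p = 1).

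The Muc1 call in wild type lay close to the threshold. Fitted with slide the difference was -0.77 ± 0.30 (adjusted p = 0.0963), and within slides 1 and 3 it was -0.63 and -0.90. Adjusted over all probes it was not called (adjusted p = 0.0669). The call also ended without slide 2 (-0.88, adjusted p = 0.203), without the filter on dim probes (adjusted p = 0.0559), and without wild type saline 6 (-0.86, adjusted p = 0.143), 7 (-0.90, adjusted p = 0.128) or 8 (-1.05, adjusted p = 0.073). The same was so without wild type cerulein 9 (-0.97, adjusted p = 0.0883), 11 (-0.79, adjusted p = 0.143) or 12 (-1.10, adjusted p = 0.0548), transgenic saline 3 (-0.98, adjusted p = 0.0657), or transgenic cerulein 14 (-0.98, adjusted p = 0.0606) or 16 (-0.98, adjusted p = 0.0533).

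The directions of the called members (Sox9, Onecut1, Hes1 and Muc1) were the same with the 75th percentile, normexp, quantile normalization and the authors' series table. Averaged over both genotypes, a contrast chosen after the values were seen, the cerulein difference was -1.47 ± 0.24 for Sox9 (adjusted p = 0.000417), -2.16 ± 0.38 for Onecut1 (adjusted p = 0.000791), 1.43 ± 0.26 for Hes1 (adjusted p = 0.000934) and -0.72 ± 0.23 for Muc1 (adjusted p = 0.03). In that contrast 27.1% of all genes were called. In the fit with slide Sox9 (-1.07, adjusted p = 0.000306), Onecut1 (-1.69, adjusted p = 0.0097) and Hes1 (1.89, adjusted p = 2.37e-05) were called and Muc1 was not (-0.51, adjusted p = 0.108), with 33.6% of all genes called. Without both arrays rich in intestinal transcripts the differences were -1.57 for Sox9, -2.41 for Onecut1, 1.43 for Hes1 and -0.93 for Muc1, all called (adjusted p = 0.00165, 0.00104, 0.0058 and 0.0138), beside 22.5% of all genes.

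**Figure D2:**
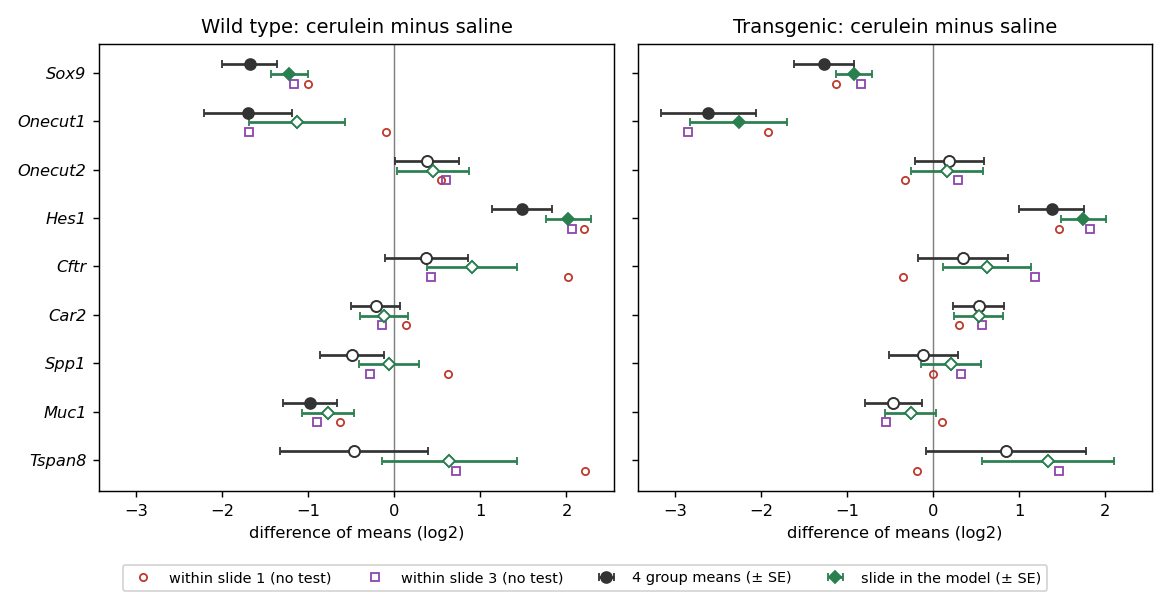
Differences of group means, cerulein minus saline (log2), are plotted for the 9 genes in wild type (left) and transgenic pancreas (right); circles with bars come from the 4 group means and diamonds from the model with slide (bars are SE, filled markers are called at adjusted p below 0.05, open ones are not), and small open red circles and purple squares are the untested differences within slides 1 and 3. Sox9 lies at -1.68 and -1.27, Hes1 at 1.48 and 1.38, and Onecut1 in wild type at -1.7 overall but -0.10 within slide 1.

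The 4 remaining markers did not pass the test for cerulein in either genotype in the fit of 4 group means. Cftr, the apical anion channel, was near the detection limit, at -6.31 to -4.8 on the wild type saline arrays, none well above background, and at -6.17 to -4.29 on the wild type cerulein arrays, 2 of them well above background. Its differences were 0.37 ± 0.48 in wild type (adjusted p = 0.606) and 0.35 ± 0.52 in transgenic pancreas (adjusted p = 0.745). Fitted with slide they were 0.90 ± 0.52 (adjusted p = 0.261) and 0.63 ± 0.51 (adjusted p = 0.429), and within slides 1 and 3 they were 2.02 and 0.42 in wild type and -0.35 and 1.19 in transgenic pancreas. Car2, the bicarbonate-supplying carbonic anhydrase, differed by -0.22 ± 0.28 in wild type (95% interval -0.82 to 0.38; adjusted p = 0.6) and by 0.53 ± 0.30 in transgenic pancreas (95% interval -0.11 to 1.18; adjusted p = 0.335), or by -0.12 ± 0.28 and 0.53 ± 0.28 with slide. Within slides 1 and 3 Car2 differed by 0.13 and -0.15 in wild type and by 0.30 and 0.57 in transgenic pancreas. Spp1 differed by -0.49 ± 0.37 (adjusted p = 0.375) and -0.11 ± 0.40 (adjusted p = 0.897), or by -0.06 ± 0.35 and 0.21 ± 0.35 with slide. Within slides 1 and 3 Spp1 differed by 0.62 and -0.28 in wild type and by 0 and 0.33 in transgenic pancreas. Tspan8 differed by -0.47 ± 0.86 (adjusted p = 0.725) and 0.85 ± 0.93 (adjusted p = 0.649).

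For Tspan8, slide and the arrays rich in intestinal transcripts moved the cerulein difference. Within slides 1 and 3 it was 2.21 and 0.72 in wild type and -0.19 and 1.47 in transgenic pancreas, and with slide in the model it was 0.64 ± 0.78 and 1.34 ± 0.77. In transgenic pancreas, without both arrays and with slide in the model, it was 2.34 ± 0.61 (adjusted p = 0.0306), and averaged over both genotypes it was 1.59 ± 0.43 (adjusted p = 0.0222). In that same averaged fit Cftr was 1.13 ± 0.35 (adjusted p = 0.0398), where 28.6% of all genes were called. The averaged differences were not called for either gene in the other fits. For Tspan8 they were 0.19 with all arrays, 0.99 with slide and 0.38 without both arrays (adjusted p = 0.838, 0.228 and 0.655). For Cftr they were 0.36, 0.76 and 0.48 in the same order (adjusted p = 0.46, 0.164 and 0.357).

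Between the genotypes, none of the 9 genes was called by limma after saline, after cerulein or in the difference of the cerulein responses. Calls were rare throughout, with 13 of 17338 genes (0.075%) after saline, 25 (0.144%) after cerulein and 0 for the difference of responses, where 134 genes had an unadjusted p below 0.05. At an unadjusted p below 0.05 there was 1 of the 9 after saline (Spp1), 3 after cerulein (Car2, Spp1 and Tspan8) and 0 for the difference of responses. At the same threshold there were 557 of all 17338 genes after saline and 1222 after cerulein. The median difference over the 9 genes was 0.34 after saline and 0.49 after cerulein, beside 0 and 0.1 over all genes. Car2, Spp1 and Tspan8 are described here for their size, and their differences failed the correction over all genes.

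Car2 separated the genotypes after cerulein. It stood at -1.89, -2.07, -2.36 and -2.33 in wild type mice 9 to 12 and at -0.74, -0.75, -1.2 and -1.28 in transgenic mice 13 to 16, higher in 4 of 4 transgenic arrays. Groups that do not overlap with the transgenic group higher occurred for 1.57% of all genes. The difference was 1.17 ± 0.28 (95% interval 0.57 to 1.77; unadjusted p = 0.00086, adjusted p = 0.179), or 2.25-fold. With slide in the model it was 1.04 ± 0.25 (adjusted p = 0.0993), and within slides 1, 2 and 3 it was 1.14, 1.07 and 0.86. Without both arrays rich in intestinal transcripts it was 1.09 ± 0.30 (adjusted p = 0.516). After saline Car2 stood at -2.03, -1.64, -2.63 and -1.47 in wild type and at -1.04, -1.49 and -2.04 in transgenic mice, which overlapped, and the difference was 0.41 ± 0.30 (adjusted p = 1). The difference of responses was 0.75 ± 0.41 (95% interval -0.13 to 1.63; adjusted p = 1).

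Spp1, the secreted phosphoprotein osteopontin, had the higher group mean in transgenic pancreas under both treatments, without passing the test. After saline it stood at 0.59, 1.04, 1.42 and 0.87 in wild type and at 1.4, 2.41 and 2.01 in transgenic mice. After cerulein it stood at 1.21, 0.83, -0.12 and 0.03 in wild type and at 0.93, 1.87, 2.54 and 1.97 in transgenic mice. The groups overlapped after each treatment, through transgenic saline 2 and transgenic cerulein 13, both on slide 1. The differences were 0.96 ± 0.40 after saline (95% interval 0.10 to 1.82; adjusted p = 1) and 1.34 ± 0.37 after cerulein (95% interval 0.54 to 2.13; adjusted p = 0.283). Fitted with slide they were 1.01 ± 0.33 (adjusted p = 0.326) and 1.27 ± 0.32 (adjusted p = 0.11). Within slides 1 and 3 the saline difference was 0.81 and 1.1, and within slides 1, 2 and 3 the cerulein difference was 0.18, 2.01 and 1.71. Without both arrays rich in intestinal transcripts they were 1.23 ± 0.46 (adjusted p = 1) and 1.32 ± 0.41 (adjusted p = 0.615).

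Tspan8 was higher on every transgenic than on every wild type array after cerulein, but was well above background on only 2 of the 4 wild type arrays. Such a separation, with the transgenic group higher, occurred for 1.57% of all genes. The levels were -3.62, -3.4, -6.36 and -6.66 in wild type mice 9 to 12, where both slide 2 arrays (11 and 12) were not well above background, and -1.94, -0.27, -2.17 and -3.17 in transgenic mice. The difference was 3.13 ± 0.86 (95% interval 1.28 to 4.97; adjusted p = 0.278), and it includes the dim values of arrays 11 and 12. With those raised to the lowest signal among probes well above background, the wild type mean was -4.15 in place of -5.01, against -1.89 in transgenic mice. With slide in the model the difference was 2.47 ± 0.70 (adjusted p = 0.149), and within slides 1, 2 and 3 it was 2.52, 3.35 and 1.23. Without both arrays rich in intestinal transcripts it was 2.59 ± 0.78 (adjusted p = 0.603). After saline the levels were -5.83, -3.99, -4.26 and -4.1 in wild type and -0.91, -3.24 and -4.05 in transgenic mice. Wild type saline 5 and 7 were not well above background. The saline difference was 1.81 ± 0.93 (adjusted p = 1), and 0.90 ± 0.88 without both arrays (adjusted p = 1). Within slides 1 and 3 it was 4.92 and 0.47, the slide 1 value setting transgenic saline 2 against wild type saline 5.

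**Figure D3:**
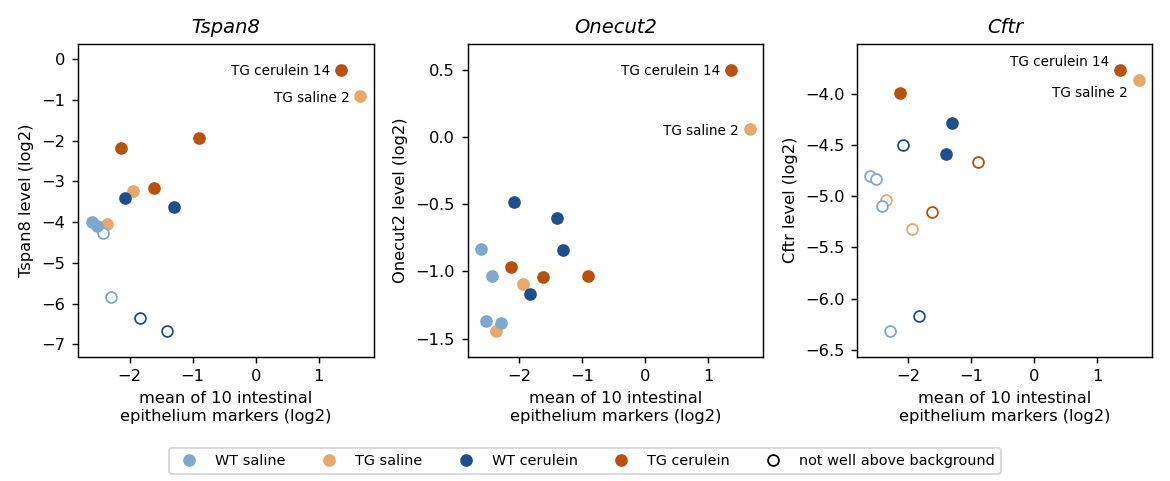
Levels of Tspan8, Onecut2 and Cftr (log2, vertical axes) are plotted against the mean level of 10 intestinal epithelium markers (log2, horizontal axis) on each of the 15 arrays, coloured by group, with open markers not well above background. Transgenic saline 2 and transgenic cerulein 14, at 1.66 and 1.36 on the horizontal axis, hold the 2 highest levels of each gene.

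Averaged over both treatments, a contrast chosen after the values were seen, transgenic minus wild type was 1.15 ± 0.27 for Spp1 (adjusted p = 0.0776), 0.79 ± 0.21 for Car2 (adjusted p = 0.121) and 2.47 ± 0.63 for Tspan8 (adjusted p = 0.115). In that contrast 0.571% of all genes were called. In the fit with slide Spp1 (1.14 ± 0.23, adjusted p = 0.024) and Tspan8 (2.12 ± 0.51, adjusted p = 0.0471) were called and Car2 was not (0.72 ± 0.18, adjusted p = 0.0587), with 3.3% of all genes called. Without both arrays rich in intestinal transcripts and with slide in the model none of the 3 was called, beside 0.923% of all genes. The differences were 1.16 for Spp1, 1.46 for Tspan8 and 0.62 for Car2 (adjusted p = 0.0949, 0.0952 and 0.205). Without both arrays and without slide none of the 3 was called either, beside 0.254% of all genes. There the differences were 1.28 for Spp1, 1.74 for Tspan8 and 0.63 for Car2 (adjusted p = 0.152, 0.395 and 0.437).

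Sox9, Onecut1, Onecut2, Hes1, Cftr and Muc1 differed between the genotypes by -0.25 to 0.52 after saline and by -0.57 to 0.64 after cerulein, with intervals that all included 0. For Sox9 after cerulein the difference was 0.64 ± 0.32 (95% interval -0.05 to 1.34; adjusted p = 0.744). For Hes1 it was -0.02 ± 0.35 (95% interval -0.76 to 0.72; adjusted p = 0.988). The difference of the cerulein responses was 0.40 ± 0.48 for Sox9, -0.91 ± 0.76 for Onecut1 and -0.10 ± 0.51 for Hes1, each with an adjusted p of 1.

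**Figure D4:**
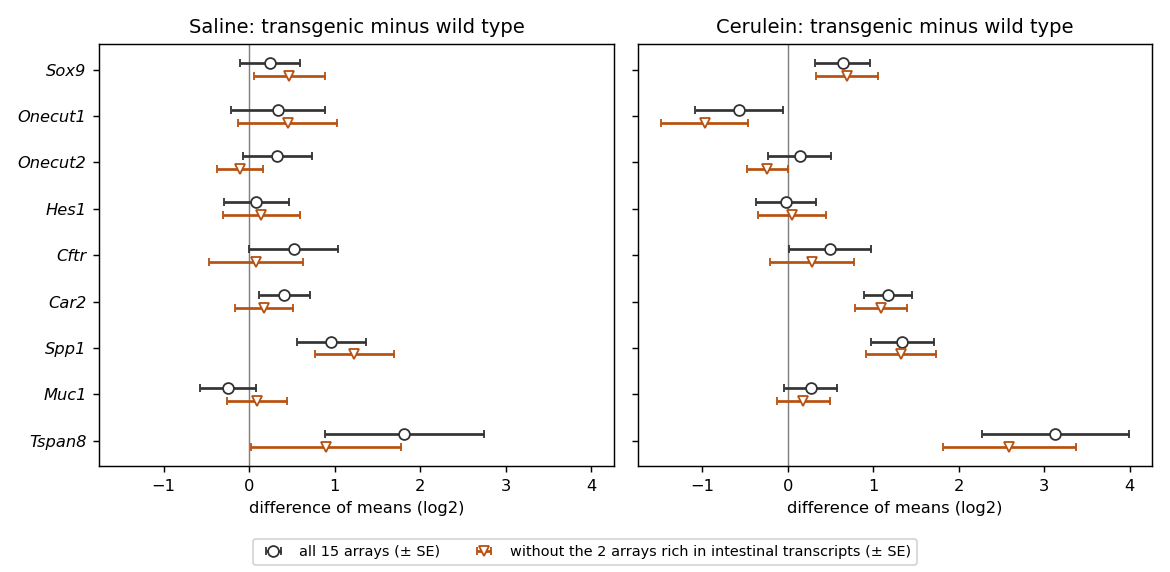
Differences of group means, transgenic minus wild type (log2), are plotted for the 9 genes after saline (left) and after cerulein (right), with all 15 arrays (circles) and without the 2 arrays rich in intestinal transcripts (triangles); bars are SE and no value was called. Car2, Spp1 and Tspan8 lie at 1.17, 1.34 and 3.13 after cerulein, and the saline difference of Tspan8 moves from 1.81 to 0.90 when both arrays are left out.

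Some fibroblast markers differed between the genotypes after cerulein, where Car2, Spp1 and Tspan8 did not pass the test. Of 12 fibroblast and stellate cell markers, 3 were called higher in transgenic pancreas (25 of all 17338 genes were called), with a median difference of 1.16. With slide in the model 6 were called (114 of all genes). The 3 called without slide were Lum (2.54 ± 0.39, adjusted p = 0.0133), Col1a2 (1.91 ± 0.34, adjusted p = 0.0383) and Col1a1 (2.51 ± 0.46, adjusted p = 0.0467), which encode lumican and the chains of type I collagen. The mean level of the 12 was -0.22 to 0.93 in the wild type and 0.9 to 2.12 in the transgenic cerulein arrays. Of 9 neutrophil and 13 macrophage markers none was called after cerulein, with medians of 0.79 and 0.23. After saline their medians were 1.16 and 0.29, that of the fibroblast markers was 0.77, and none of these markers was called. With normexp the neutrophil median after saline was 0.12. In the fit with slide 1 neutrophil and 2 fibroblast markers were called higher after saline, and 1 neutrophil and 1 islet marker after cerulein. Of the duct lists below, that fit called 1 primary cilium or cyst gene higher after saline and 1 after cerulein. It also called 1 mucin or duct surface gene higher after cerulein. Over all genes it called 40 after saline and 114 after cerulein. Without slide in the model, none of 16 islet and 19 acinar markers was called after cerulein, with medians of 0.56 and -0.15. Of 10 intestinal markers none was called, with a median of 0.66. Vil1 differed by 2.50 ± 0.46 (adjusted p = 0.0507) and by 2.32 with normexp, where it was called (adjusted p = 0.0194). The part of these cells in the differences of Spp1, Car2 and Tspan8 was not tested.

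The counts of called genes in the lists that follow stand beside those of all genes tested, of which 14% were called in wild type and 8.2% in transgenic pancreas, and 21.5% and 23.6% with slide in the model. With slide, 63.9% and 64.6% of these calls over all genes were rises. No list was tested as a group.

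Among 21 further duct transcription factors and cofactors measured, 4 rose and 3 fell in wild type and 4 rose and 1 fell in transgenic pancreas after cerulein. With slide there were 7 rises and 3 falls in wild type and 6 rises and 1 fall in transgenic pancreas. Their median difference was -0.04 and 0.18, beside -0.06 over all genes in each genotype. Foxa2, a forkhead pioneer factor of gut-derived epithelia, fell by 2.65 ± 0.30 in wild type (adjusted p = 5.39e-05) and fell by 2.38 ± 0.32 in transgenic pancreas (adjusted p = 0.000351), the largest falls of the list. Its paralogue Foxa1 had the largest rises, by 3.08 ± 0.53 (adjusted p = 0.00156) and 2.66 ± 0.57 (adjusted p = 0.00931). With normexp background correction the Foxa1 differences were 0.58 (adjusted p = 0.167) and 0.63 (adjusted p = 0.196), while those of Foxa2 were -2.36 and -2.18. Klf5, an epithelial zinc finger factor and named after its values were seen, rose by 2.34 ± 0.28 and 2.12 ± 0.30 (adjusted p = 7.91e-05 and 0.000488).

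Hes1 is a target of Notch signalling, and of 30 Notch pathway genes 2 rose and 4 fell in wild type and 2 rose and 3 fell in transgenic pancreas after cerulein. There were 6 falls in transgenic pancreas when slide was in the model. The median difference was -0.40 and -0.34. Lfng, a glycosyltransferase that modifies Notch receptors, fell by 1.97 ± 0.28 in wild type (adjusted p = 0.000365) and fell by 1.80 ± 0.30 in transgenic pancreas (adjusted p = 0.00188). Dtx2, a Deltex ubiquitin ligase, rose by 1.33 ± 0.24 (adjusted p = 0.00244) and 1.57 ± 0.26 (adjusted p = 0.00185). The ligand gene Jag1 and the receptor-cleaving protease gene Adam10 were picked after their values were seen. Jag1 fell by 1.91 ± 0.35 and fell by 1.75 ± 0.38 (adjusted p = 0.00232 and 0.00928), and Adam10 rose by 1.33 ± 0.28 and 1.43 ± 0.31 (adjusted p = 0.00642 and 0.00896). The Hes-related repressor gene Hey1 was also picked after its values were seen. It fell in wild type by 0.74 ± 0.20 (adjusted p = 0.0239), in the opposite direction to Hes1, and was not called in transgenic pancreas.

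Cftr and Car2 belong to the machinery of fluid and bicarbonate secretion. Of 21 other genes of duct fluid and bicarbonate secretion, 1 rose and 3 fell in wild type and 0 passed in transgenic pancreas, with medians of -0.25 and -0.02. The purinergic receptor gene P2ry2 rose by 1.30 ± 0.35 in wild type (adjusted p = 0.0244), a change that was 0.34 and not called with normexp. The potassium channel gene Kcnq1 fell by 0.95 ± 0.29 (adjusted p = 0.0418; with slide in the model -0.48, adjusted p = 0.0848). Of 11 other carbonic anhydrases, 2 fell in wild type and 0 passed in transgenic pancreas. Car3, best known from muscle and fat, differed by -2.15 ± 0.61 in wild type (adjusted p = 0.0298) and by -2.29 with slide in the model (adjusted p = 0.0551).

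Of 16 mucins and duct surface proteins besides Muc1, 4 rose and 1 fell in wild type and 2 rose and 0 fell in transgenic pancreas, and 7 rises and 0 falls were called in each genotype when slide was in the model. E-cadherin (Cdh1) rose by 2.27 ± 0.32 in wild type (adjusted p = 0.000365) and 2.19 ± 0.35 in transgenic pancreas (adjusted p = 0.00127). The trefoil peptide gene Tff2 fell in wild type by 1.06 ± 0.31 (adjusted p = 0.0345; with slide in the model -0.60, adjusted p = 0.089). Of 5 duct keratins, 2 rose and 0 fell in each genotype, with medians of 0.77 and 0.79, and both genes are also made in acinar cells. Krt8 rose by 4.21 ± 0.36 in wild type (adjusted p = 4.57e-06) and 4.26 ± 0.39 in transgenic pancreas (adjusted p = 1.13e-05). Its partner Krt18, named after its values were seen, rose by 1.70 ± 0.32 and 1.71 ± 0.34 (adjusted p = 0.00259 and 0.00601).

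Of 20 tetraspanins besides Tspan8, 3 rose and 2 fell in wild type and 2 rose and 0 fell in transgenic pancreas, with medians of -0.30 and -0.19. Cd9 rose by 1.5 ± 0.37 (adjusted p = 0.0146) and 1.43 ± 0.40 (adjusted p = 0.0374), and Tspan3 fell in wild type by 1.08 ± 0.28 (adjusted p = 0.0217). Of 10 genes of the duct's primary cilium and of cystic disease, 1 fell in wild type and 0 passed in transgenic pancreas. It was Cys1, the gene of the ciliary membrane protein cystin, which fell by 1.39 ± 0.31 (adjusted p = 0.00902).

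Acinar markers were read beside these changes because acinar cells make up most of the organ. All 19 measured were well above background on all 15 arrays, and 1 rose and 3 fell in wild type and 1 rose and 1 fell in transgenic pancreas, with medians of -0.79 and -0.71. There were 6 falls in transgenic pancreas in the model with slide. Rbpjl, the acinar paralogue of RBPJ, fell by 1.81 ± 0.28 (adjusted p = 0.000715) and fell by 1.73 ± 0.30 (adjusted p = 0.00243). Ptf1a, its partner in the acinar transcription complex, rose by 1.17 ± 0.32 (adjusted p = 0.0281) and 1.68 ± 0.35 (adjusted p = 0.00774). With quantile normalization the medians were 0 and -0.05, and with slide -0.25 and -0.36. The mean acinar marker level was 8.84 to 9.52 in the wild type saline and 8.07 to 9.18 in the wild type cerulein arrays, and its part in the Sox9, Onecut1 and Muc1 falls was not tested. Islet markers had 1 of 16 called, Ucn3, which fell in wild type (by 1.08 ± 0.30, adjusted p = 0.027). Among blood and stromal markers in the cerulein responses, 1 of 13 macrophage genes rose in each genotype, Cd14 (1.36 ± 0.19 in wild type, adjusted p = 0.000258). Of 9 neutrophil genes 2 rose in wild type and 0 passed in transgenic pancreas, with S100a9 at 2.85 ± 0.71 (adjusted p = 0.0166) in wild type and 0.75 ± 0.77 (adjusted p = 0.621) in transgenic pancreas, and the responses were not shown to differ (-2.10 ± 1.05, adjusted p = 1). Of 8 erythrocyte and 12 fibroblast markers none passed.

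Several of these calls on list genes ended when single arrays were left out. Of the 15 fits that each left out 1 array, the call held in 5 for Cd9 in transgenic pancreas (1.14 to 1.67). In wild type it held in 7 for Kcnq1 (-1.16 to -0.75), 9 for Tff2 (-1.22 to -0.81), 9 for Ucn3 (-1.27 to -0.93), 10 for Tspan3 (-1.26 to -0.91), 10 for Car3 (-2.7 to -1.71), 11 for Ptf1a (0.99 to 1.32), 12 for P2ry2 (0.99 to 1.67) and 13 for S100a9 (2.39 to 3.65). In transgenic pancreas it held in 14 for Foxa1 (2.45 to 2.89) and 13 for Vil1 (1.93 to 2.62).

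Of 10 intestinal markers, 2 rose with cerulein in wild type, on arrays without the high levels described above, and 1 rose in transgenic pancreas. The wild type median over the 10 was 0.64, but 0.06 with slide in the model and -0.14 with normexp. Vil1, the actin bundler of the brush border, rose by 2.53 ± 0.46 (adjusted p = 0.00223) and 2.23 ± 0.50 (adjusted p = 0.0113). Krt20, a keratin of gut and of injured epithelia, rose in wild type by 2.88 ± 0.62 (adjusted p = 0.00707).

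The genes whose profiles lay closest to a called member were found by the root mean square difference between mean-centred levels over the 15 arrays. For Sox9 they were Ggcx and C330018D20Rik, each at 0.2 (log2). For Hes1 they were Plekhf2 and Prdm4, each at 0.24, and for Muc1 Lgals1 at 0.18 and Fam174b at 0.23. For Onecut1, which was below background after cerulein, the nearest were Gm14305 and Dolpp1 at 0.63. They were chosen for likeness over these same arrays, so their own cerulein differences are not tested here.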

How the data were processed

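Whole pancreas RNA of 15 mice was hybridised to 1-colour Agilent arrays, 1 per mouse. Processed signal intensities and well-above-background flags were used as deposited. Per the file headers, the scanner software (Agilent Feature Extraction 10.7.3.1) had corrected each array for background and for spatial trend. The authors' deposited series table holds log2 values of 42482 probes, whose normalization is not given in the sources used here; its medians were 6.56 to 6.93 and its correlation with the log2 scanner signal 0.987 to 0.998, and it served as an alternative.

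Control spots and flagged outliers were left out, spots of a probe were averaged, and log2 signals were scaled to each array's 75th percentile. Of 55681 probes, 42181 were well above background on at least 3 arrays, and 22389 of these had a gene name. A gene was read from its brightest kept probe. limma 3.58.1 (R 4.3.3) fitted 4 group means (11 residual degrees of freedom), and its p-values, two-sided, received Benjamini-Hochberg adjustment across all 17338 genes. The script was tested on simulated data. Separate mice of a group were taken as replicates, and their number limits the precision.

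The members and lists were chosen with earlier results of these data known. The 9 genes were named in every comparison; from each other list, the called gene with the largest rise and fall in each genotype's cerulein response; and for called members the 2 genes of nearest profile. Promoter sequences are RefSeq's, GRCm38.p6, where 5 members had an entry, chromosome 18 (Onecut2) not being counted. Alternatives were normexp background correction (offset 50, on the median signal, as the files used hold no mean signal), quantile normalization, the series table, 3 probe rules, slide, array weights and leaving out arrays.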

Additional observations from a re-analysis of the deposited data

Results flagged for a closer look

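Of 27 sets of 4 arrays examined, 5 held a value far from the other 3, where chance gives about 1 in 20. Sox9 in wild type saline 5 was -0.82, with the nearest value at -0.17. Tspan8 on the same array was -5.83, not well above background, with the nearest at -4.26. Onecut1 in wild type cerulein 12 was -7.1, with the nearest at -5.3 and all 4 not well above background. Cftr in wild type cerulein 11 was -6.17, not well above background, with the nearest at -4.59. Onecut2 in transgenic cerulein 14 was 0.5, with the nearest at -0.97, on an array whose mean intestinal marker level was 1.36. Wild type saline 5 was the only wild type saline array on slide 1, and wild type cerulein 11 and 12 were on slide 2. The part of slide in these values was not tested.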

How the results depend on the processing

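No paired analysis was possible because the replicate numbers are unique to each mouse and the groups share none. In wild type, 4 of the 9 genes were called for cerulein, but 2 with slide in the model, 1 without slide 2, 2 with p-values adjusted over all probes, 2 without both arrays rich in intestinal transcripts and with slide in the model, and 2 to 4 when single arrays were left out. In transgenic pancreas 3 were called, but 7 with array weights, 1 without both arrays and 1 to 3 without single arrays. After saline 0 differed between the genotypes, but 1 with array weights (Spp1, 1.10, adjusted p = 0.0252). Array weights were estimated gene by gene because the usual estimate did not converge, and ranged from 0.253 to 4.36. The causes were not tested. Sox9 and Hes1 in wild type and Onecut1 in transgenic pancreas were called in all 15 fits that left out 1 array.

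Counts over all genes moved too. For cerulein in wild type they were 2425, and 3735 with slide, 1555 without slide 2, 7096 with array weights and 1370 to 4439 without single arrays. In transgenic pancreas they were 1421, and 2198 with quantile normalization, 4084 with slide, 7714 with weights, 555 without both arrays, 2863 without both and with slide, and 695 to 1829 without single arrays. Between genotypes after saline they were 13, and 7 with normexp or without both arrays, 40 with slide, 563 with weights and 4 to 15 without single arrays. After cerulein they were 25, and 46 with quantile normalization, 47 with the series table, 114 with slide, 4 without slide 2, 16 without both arrays, 54 without both and with slide, and 11 to 45 without single arrays. For the difference of responses 1 gene was called with slide. The share of calls that were rises in wild type was 40.3%, and 28.9% with normexp, 63.9% with slide and 71.2% without slide 2; in transgenic pancreas it was 58.3%, and 41% with weights.

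Signs turned only for differences that were not called. For cerulein in wild type, Cftr was -0.45 with normexp and 0 in the series table, Spp1 0.04 without slide 2, and Tspan8 0.64 with slide, 1.04 without slide 2, 0.84 without both arrays and with slide, and -1 to 0.09 without single arrays. In transgenic pancreas, normexp gave -0.53 for Cftr, 0 for Spp1 and -0.03 for Tspan8, and Spp1 was 0.21 with slide and 0.07 without both arrays and with slide. Without single arrays Onecut2 was -0.19 to 0.63 and Spp1 -0.38 to 0.18.

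For the genotypes after saline, normexp gave -0.1 for Onecut1 and -0.06 for Hes1, and weights gave -0.04 for Onecut1, -0.15 for Onecut2 and -0.15 for Cftr. Without both arrays Onecut2 was -0.11 and Muc1 0.09, and with slide as well Onecut2 was -0.17, Hes1 -0.03 and Cftr -0.1. Without single arrays Onecut1 was -0.06 to 0.61, Onecut2 -0.11 to 0.64, Hes1 -0.19 to 0.28 and Muc1 -0.59 to 0.09. After cerulein, Onecut1 was 0.02 in the series table, Onecut2 -0.24 without both arrays and -0.27 with slide as well, Hes1 0.04 with quantile normalization and 0.05 without both arrays, and Cftr -0.08 with normexp. Without single arrays Onecut2 was -0.24 to 0.27 and Hes1 -0.24 to 0.25. For the difference of responses, Sox9 was 0 and Spp1 -0.2 without slide 2, normexp gave 0.01 for Onecut1 and 0.04 for Hes1, and weights gave 0.92 for Onecut2, 0.86 for Cftr and 0 for Spp1. Cftr was also 0.12 with quantile normalization, 0.07 in the series table, 0.2 without both arrays and 0.23 with slide as well. Without single arrays Onecut2 was -0.57 to 0.25, Hes1 -0.32 to 0.17 and Cftr -0.45 to 0.41.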
